A study of Mus musculus with 6 samples.

Results

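The Kruppel-like factors described here are 10 zinc finger transcription factors, Klf2, Klf3, Klf4, Klf5, Klf6, Klf7, Klf9, Klf10, Klf13 and Klf15. They were taken by gene symbol from a table of 24498 genes, all 10 were found, and all 10 were among the 13846 genes kept by the filter on low counts. RNA was sequenced in bulk from prostate epithelial cells that were sorted by a lineage reporter from male mice. In the line labelled Nkx an inducible CreER(T2) recombinase switched on a ROSA26 EYFP allele, and in the line labelled Clu a CreER(T2) under Clu (clusterin, an extracellular chaperone) switched on a ROSA26 tdTomato allele, so each group holds whatever cells had used that driver when the recombinase was active. Nkx intact and Clu intact cells came from mice left intact at 8 weeks of age, and Nkx castrate cells came from mice castrated at that age; tissue was taken 4 weeks later in each case. Each group held 2 libraries, named here by group and replicate number, and no castrate Clu group was analysed here. Whether libraries of 1 group stem from different mice is not stated in the labels; the p-values thus reflect only the library-to-library spread, which may be technical.

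Kruppel-like factors bind GC-rich and CACCC-type DNA elements through a triplet of C2H2 zinc fingers near the carboxyl end, and their differing amino-terminal parts recruit co-activators or co-repressors. In epithelia the pair best known for opposite settings is Klf4, typical of cells that have left the cell cycle and differentiated, and Klf5, typical of growing basal and crypt cells. In the prostate, KLF5 and KLF6 have been studied mainly in human cancer, where KLF6 was described as a growth suppressor. Several members are also induced quickly by outside signals: Klf2, Klf4, Klf6 and Klf10 by stress, serum or growth factors, and Klf9 and Klf15 by glucocorticoids.

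Depth lay between 10220118 and 17412874 counts a library, and the 10 genes together took between 1988 and 2584 CPM (counts scaled to the library's size and its TMM factor). The cells carried epithelial transcripts in each library, with Epcam between 336 and 839 CPM and Krt8 between 705 and 2558 CPM. Clu itself, the driver of the Clu line, was lowest in Nkx intact (323 and 245 CPM), higher in Nkx castrate (721 and 844 CPM) and highest in Clu intact (1808 and 1934 CPM). The Nkx castrate libraries were the least alike of the 3 pairs. Their Pearson r on log2 CPM was 0.932, against 0.969 for Nkx intact and 0.977 for Clu intact. Nkx castrate 1 had 18516 genes with a count, against 15045 to 15778 in the other 5 libraries. It also held the most stromal and leukocyte marker RNA. Its 20 stromal markers summed to 2804 CPM against 641 to 1566 CPM in the other 5 libraries. Its 19 leukocyte markers summed to 289 CPM against 44.1 to 151 CPM. For 12 endothelial markers the sums were 1079 and 442 CPM in the Clu intact libraries, 436 and 67.3 CPM after castration and 73.7 and 49.5 CPM in Nkx intact. These sums are given again beside Klf7 and Klf2. In bulk RNA, fewer cells of a type and less RNA per cell cannot be told apart.

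Castration went with higher Klf5 and Klf7 and lower Klf15 in Nkx-marked cells. At a Benjamini-Hochberg adjusted p under 0.05 in edgeR's quasi-likelihood test, 2 of the 10 members rose, 1 fell and 7 did not pass, while 4.02% of all tested genes rose and 4.59% fell. The median log2 fold change of the members was 0.16, against 0.05 over all tested genes. Without Nkx intact 1 the number of members called was 0, without Nkx intact 2 it was 1, and without Nkx castrate 1 it was 5. The share of all tested genes called, 8.61%, moved in the same fits to 1.91%, 1.4% and 16.8%.

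Clu-marked cells of intact mice had more Klf5 and Klf3 and less Klf4, Klf6 and Klf15 than Nkx-marked cells of intact mice. That makes 2 members higher and 3 lower of the 10 tested, against 6.29% and 5.0% of all tested genes. The member median was -0.38 and that of all tested genes was -0.01 (log2). Leaving out Nkx intact 1 or Clu intact 2 reduced the members called from 5 to 1, leaving out Clu intact 1 to 2 and leaving out Nkx intact 2 to 3. Over all tested genes the called share of 11.3% became 2.7%, 3.29%, 3.85% and 2.62% in those 4 fits.

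Set against Nkx castrate cells, Clu intact cells again had more Klf5 and Klf3, and had less Klf4, Klf6, Klf9 and Klf13. Here 2 members were higher and 4 lower, where 8.82% of all tested genes were higher and 8.10% lower. The medians were -0.46 for the members and -0.003 for all tested genes (log2). Without Clu intact 2 the members called were 2 (Klf3 and Klf5), and the called share of all genes was 4.57% in place of 16.9%. Whether the pair of libraries of one group lay wholly above or below that of the other is a looser measure: with castration 4 members did so upward and 4 downward (25.4% and 24.6% of all tested genes). For Clu intact 3 members lay wholly above and 5 wholly below Nkx intact (31.9% and 31.3% of all), and 3 above and 5 below Nkx castrate (31.5% and 30.0%). Each pair of the 3 comparisons shares a group of libraries, so their results are not independent of each other.

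**Figure D1:**
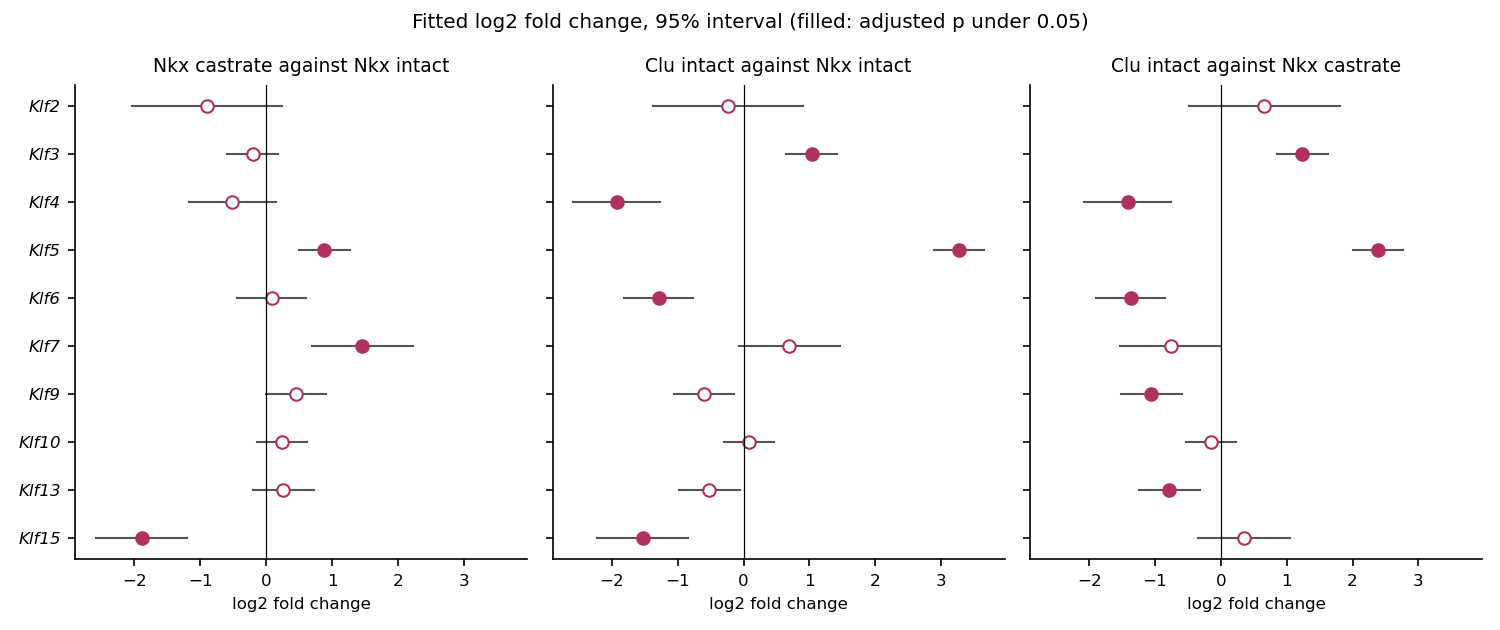
Fitted log2 fold changes (x axis) of the 10 Kruppel-like factors (y axis) in the 3 comparisons, with 95% intervals from the edgeR model; filled points passed at an adjusted p under 0.05. Klf5 lies right of 0 in all 3 panels (0.88, 3.27 and 2.39), while Klf4 and Klf6 lie left of 0 with filled points in the 2 panels that involve Clu intact.

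Promoter windows are shown for 4 members that differed between Clu and Nkx intact cells, 1 higher (Klf3) and 3 lower (Klf4, Klf6, Klf15) in Clu cells, so that their start regions can be compared. Each is 250 bases before to 50 after the start on the gene's strand, from RefSeq on GRCm38.p6, which is not the build of the counts. Windows were matched for 8 of the 10 members, all but Klf5 and Klf10. Klf5, which differed most between Clu and Nkx intact cells, could thus not be shown. Capitals mark GGGCGG on either strand, the GC box that Sp and Kruppel-like factors can bind; overlapping matches were each counted. The windows are Klf3 at chr5:64803271-64803570 (plus strand), Klf4 at chr4:55532426-55532725 (minus strand), Klf6 at chr13:5861239-5861538 (plus strand) and Klf15 at chr6:90462326-90462625 (plus strand).
Klf3: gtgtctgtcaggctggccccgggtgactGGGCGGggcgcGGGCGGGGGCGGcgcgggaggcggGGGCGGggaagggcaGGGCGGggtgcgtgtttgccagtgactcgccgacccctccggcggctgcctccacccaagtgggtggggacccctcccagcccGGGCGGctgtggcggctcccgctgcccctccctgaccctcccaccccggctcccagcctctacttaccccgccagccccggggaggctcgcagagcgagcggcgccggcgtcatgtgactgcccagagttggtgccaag
Klf4: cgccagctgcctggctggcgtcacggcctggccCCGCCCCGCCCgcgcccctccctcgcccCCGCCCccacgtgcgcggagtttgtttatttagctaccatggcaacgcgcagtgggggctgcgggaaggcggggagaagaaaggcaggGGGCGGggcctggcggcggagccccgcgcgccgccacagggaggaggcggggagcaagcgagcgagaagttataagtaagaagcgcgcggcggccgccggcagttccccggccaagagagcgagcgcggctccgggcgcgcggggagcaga
Klf6: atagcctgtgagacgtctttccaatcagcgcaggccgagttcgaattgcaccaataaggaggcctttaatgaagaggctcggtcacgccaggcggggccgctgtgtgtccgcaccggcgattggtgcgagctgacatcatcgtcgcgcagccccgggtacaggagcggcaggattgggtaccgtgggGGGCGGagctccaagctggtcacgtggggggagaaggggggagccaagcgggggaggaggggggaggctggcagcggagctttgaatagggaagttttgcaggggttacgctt
Klf15: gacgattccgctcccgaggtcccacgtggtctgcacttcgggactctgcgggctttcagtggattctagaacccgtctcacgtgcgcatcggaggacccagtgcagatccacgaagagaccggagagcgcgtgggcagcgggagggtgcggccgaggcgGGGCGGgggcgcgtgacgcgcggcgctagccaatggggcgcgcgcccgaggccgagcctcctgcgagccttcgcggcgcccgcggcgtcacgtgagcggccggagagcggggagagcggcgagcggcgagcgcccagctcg
GGGCGG was found in 7 of the 8 windows, all but that of Klf9, and in 35.7% of the 32841 windows of this length in the table. Klf3 held 6 matches, Klf4 held 4, and Klf6 and Klf15 held 1 each. The 4 windows were rich in G and C (76.7%, 74.3%, 63.0% and 73.3% in the order shown, against a median of 52.7% over all windows). CACCC on either strand was in 6 of the 8 windows and in 57.5% of all. The steroid receptor half-site AGAACA was in 0 of the 8 and in 19.0% of all. TGANTCA, a loose form of the AP-1 motif with any base at N, was in 1, that of Klf9, and in 7.81% of all. The Klf9 match read TGAATCA. A match describes letters only and is not evidence of a bound site.

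Klf5, the factor of growing epithelial layers, marked the Clu cells most strongly of the 10. Its level was 93.0 and 86.5 CPM in the Nkx intact pair, 176 and 155 CPM in the castrate pair and 872 and 863 CPM in the Clu pair. No 2 groups overlapped, and the libraries of each group lay close together. The 3 groups therefore had the order Nkx intact, Nkx castrate, Clu intact, and the largest step was that to Clu intact. Clu intact exceeded Nkx intact 9.67-fold (log2 fold change 3.27, SE 0.16; edgeR quasi-likelihood, Benjamini-Hochberg adjusted p = 1.99e-04). It exceeded Nkx castrate 5.24-fold (log2 fold change 2.39, SE 0.16; edgeR quasi-likelihood, Benjamini-Hochberg adjusted p = 2.54e-04). Both differences passed under each of the 13 alternatives. Castration raised Klf5 1.85-fold in Nkx cells (log2 fold change 0.88, SE 0.16; edgeR quasi-likelihood, Benjamini-Hochberg adjusted p = 0.0175). That call ended without Nkx intact 1 or 2 and without Clu intact 1 or 2, with adjusted p-values of 0.134, 0.191, 0.0538 and 0.0564 (edgeR quasi-likelihood, Benjamini-Hochberg), and in the fit of the Nkx groups alone (0.0551), while the log2 fold change stayed between 0.79 and 0.97. Cell-type markers differed between the groups as well: 14 markers of proximal luminal and urothelial cells summed to 823 and 939 CPM, 2534 and 3786 CPM, and 6548 and 7546 CPM in Nkx intact, Nkx castrate and Clu intact. Single markers of this list did not all share that order. Most of the castrate sum was Krt19, at 1855 and 2881 CPM there. Upk3a stood at 0.57 and 0 CPM, 146 and 197 CPM, and 0.34 and 0 CPM in the same order of groups. Psca stood at 8.99 and 10.5 CPM, 9.43 and 1.92 CPM, and 1344 and 1385 CPM. Of the 13 tested, 7 rose and 1 fell with castration, and 11 were higher in Clu intact than in Nkx intact (7 to 12 when 1 library was left out). The castration counts became 2 and 0 when an Nkx intact library was dropped, and 8 and 4 when Nkx castrate 1 was. Basal markers went the other way: the 20 summed to 7351 and 7314 CPM for Nkx intact, 6851 and 4378 CPM for Nkx castrate and 4630 and 4647 CPM for Clu intact. With castration 0 of them rose and 6 fell (0 without an Nkx intact library, 14 without Nkx castrate 1). In Clu intact 0 were higher and 8 lower than in Nkx intact (4 lower without an Nkx intact library, 5 without Clu intact 2, and 3 or 2 higher with 12 lower when a castrate library was dropped). Trp63, the basal cell factor p63, stood at 249 and 238 CPM in the Nkx intact pair, 61.5 and 34.7 CPM in the castrate pair and 13.2 and 24.6 CPM in the Clu pair. Of all tested genes, 4.02% rose and 4.59% fell with castration. In Clu intact 6.29% were higher and 5.0% lower than in Nkx intact. The part of these proximal, urothelial and basal cell types in the Klf5 difference was not tested.

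Klf4, the factor of differentiated epithelium and a gene of the classical reprogramming set, ran the other way. It stood at 706 and 504 CPM for Nkx intact, 502 and 346 CPM for Nkx castrate and 193 and 125 CPM for Clu intact. Both Clu libraries lay below all 4 Nkx libraries, and the Nkx groups almost touched, at 504 and 502 CPM. Clu intact was 3.80-fold below Nkx intact (log2 fold change -1.92, SE 0.29; edgeR quasi-likelihood, Benjamini-Hochberg adjusted p = 0.00657). Against Nkx castrate it was 2.66-fold lower (log2 fold change -1.41, SE 0.29; edgeR quasi-likelihood, Benjamini-Hochberg adjusted p = 0.0148). Without Clu intact 2 both calls ended (edgeR quasi-likelihood, Benjamini-Hochberg adjusted p = 0.0516 and 0.129), and without Nkx intact 1 the first did (0.0664). Nkx castrate against Nkx intact gave -0.51 (95% interval -1.17 to 0.15, log2), which did not pass.

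Klf6, a widely expressed factor induced by injury and growth signals, was also low in Clu cells. Its levels were 931 and 810 CPM in the Nkx intact pair, 737 and 1105 CPM in the castrate pair and 370 and 342 CPM in the Clu pair. The Nkx groups overlapped completely and the Clu libraries lay apart below them. Klf6 was 2.45-fold lower in Clu intact than in Nkx intact (log2 fold change -1.29, SE 0.22; edgeR quasi-likelihood, Benjamini-Hochberg adjusted p = 0.0114). Relative to Nkx castrate it was 2.59-fold lower (log2 fold change -1.37, SE 0.22; edgeR quasi-likelihood, Benjamini-Hochberg adjusted p = 0.00672). The first call ended when any of the 4 libraries compared was left out, with adjusted p-values up to 0.109, and the second without Clu intact 2 (0.0720; edgeR quasi-likelihood, Benjamini-Hochberg). Castration gave a log2 fold change of 0.08 (95% interval -0.44 to 0.60).

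A list of 22 immediate early and stress genes, of the kind induced when tissue is dissociated, was also low in Clu cells. The list holds no Kruppel-like factor. Its summed level was 32658 and 28833 CPM for Nkx intact, 35886 and 33530 CPM for Nkx castrate and 9354 and 7824 CPM for Clu intact. Within each group the library with the larger sum had more Klf4 (706 against 504, 502 against 346, and 193 against 125 CPM). Klf6 did likewise within Nkx intact (931 against 810 CPM) and Clu intact (370 against 342 CPM). Within Nkx castrate Klf6 went the other way. Nkx castrate 1 had the highest sum and the lowest Klf6 among the Nkx libraries (737 CPM). Between the Nkx groups, both castrate libraries had larger sums but less Klf4 than Nkx intact, if barely so at 502 against 504 CPM. Of the 22 tested genes of the list, 18 were lower in Clu intact than in Nkx intact, with a median log2 fold change of -1.63. Against Nkx castrate 17 were lower, with a median of -2.05. Over all tested genes, 5.0% were lower in Clu intact than in Nkx intact and 8.10% than in Nkx castrate. The growth-response factor Egr2 stood at 91.8, 90.1, 76.9 and 90.9 CPM in the Nkx libraries and at 10.97 and 9.59 CPM in Clu intact. Nr4a1, an orphan nuclear receptor induced within minutes of a stimulus, stood at 3331, 3260, 3496 and 3027 CPM and at 494 and 499 CPM. The count of 18 dropped to 11 when an Nkx intact library was left out and to 10 when Clu intact 2 was. After castration 1 gene of the list rose, Fos, and 1 fell, Dnajb1, and neither held without Nkx intact 1 or 2, nor Fos without a Clu intact library; 3 rose and 4 fell without Nkx castrate 1, and 3 and 2 without Nkx castrate 2. With all libraries, 1 of 22 each way after castration was near the shares of all tested genes, 4.02% higher and 4.59% lower. The part of this list's genes in the Klf4 and Klf6 difference was not tested. The sources used here do not say whether the lines were digested and sorted on the same day.

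**Figure D2:**
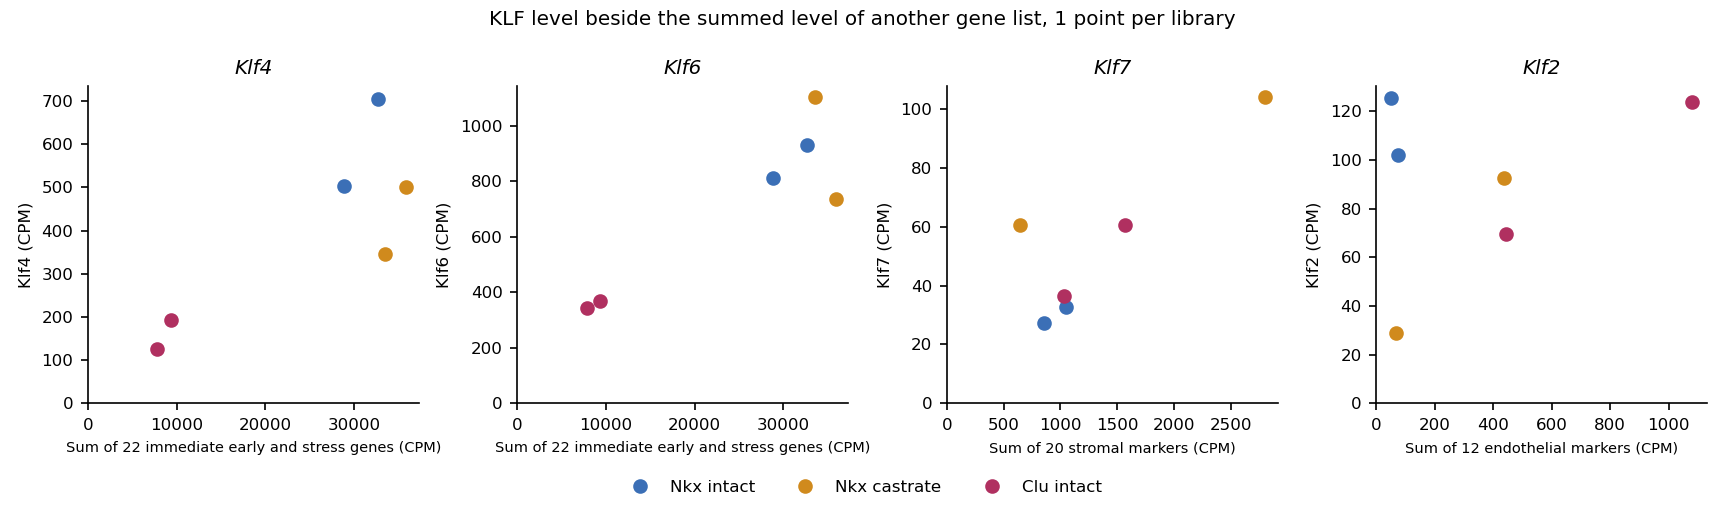
Level of Klf4, Klf6, Klf7 and Klf2 (y axes, CPM) against the summed CPM of a gene list (x axes: 22 immediate early and stress genes, 20 stromal markers, 12 endothelial markers), 1 point a library, coloured by group. The 2 Clu intact libraries are the lowest on both axes for Klf4 and Klf6, Nkx castrate 1 is the highest on both for Klf7, and Klf2 at 126 CPM was found beside the lowest endothelial sum, 49.5 CPM.

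Scaled per kilobase of exon, which is needed to set genes side by side, the leading member differed between the lines. Klf4 and Klf6 together made up 66.7% and 64.1% of the summed per-kilobase level of the 10 genes in Nkx intact and 61.7% and 66.9% in Nkx castrate, but 30.1% and 28.5% in Clu intact. Klf5 made up 2.69% and 3.05%, then 6.29% and 5.45%, and then 34.2% and 39.8%, which put it first of the 10 in both Clu libraries. The per-kilobase ratio of Klf5 to Klf4 was 0.0772 and 0.101 in the Nkx intact pair, 0.206 and 0.262 in the castrate pair and 2.65 and 4.03 in the Clu pair. So Klf4 exceeded Klf5 in the 4 Nkx libraries and Klf5 exceeded Klf4 in both Clu libraries. At the low end, Klf7 was last of the 10 in 5 libraries, with 3.35 to 7.46 CPM per kilobase; in Nkx castrate 1 it reached 12.8 CPM per kilobase and Klf3 was last. Lengths are the merged exons of GENCODE M21, an annotation on an earlier build than the counts used.

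**Figure D3:**
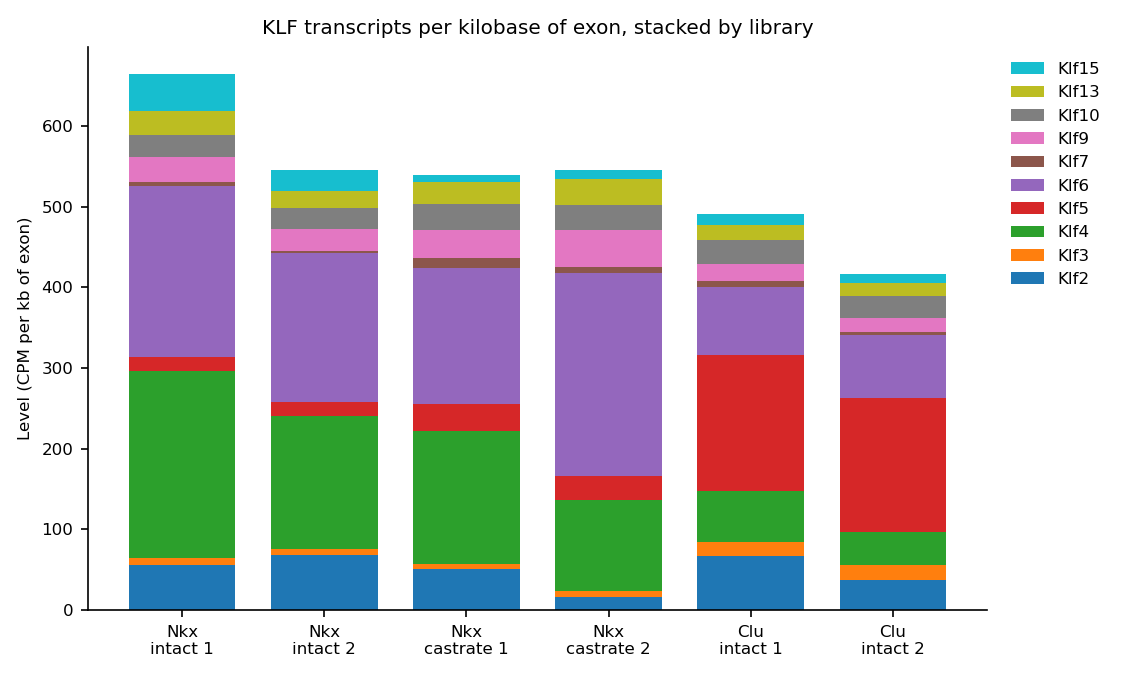
Level of the 10 Kruppel-like factors per kilobase of merged exon (y axis, CPM per kb), stacked for each of the 6 libraries (x axis). Klf4 and Klf6 fill most of the 4 Nkx bars (61.7% to 66.9%), and Klf5 is the largest segment of both Clu bars (34.2% and 39.8%).

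Klf3, a repressor that recruits the CtBP co-repressors, was the other member higher in Clu cells. It was measured at 105 and 88.9 CPM in Nkx cells of intact mice, 80.8 and 87.9 CPM in those of castrated mice, and at 199 CPM in both Clu intact libraries. The Nkx groups lay close together and the Clu libraries above them, 2.05-fold over Nkx intact (log2 fold change 1.03, SE 0.17; edgeR quasi-likelihood, Benjamini-Hochberg adjusted p = 0.00827). Against Nkx castrate the excess was 2.36-fold (log2 fold change 1.24, SE 0.17; edgeR quasi-likelihood, Benjamini-Hochberg adjusted p = 0.00307), and it passed under each of the 13 alternatives. The call against Nkx intact ended when any of the 4 libraries compared was left out, with adjusted p-values from 0.0578 to 0.103 (edgeR quasi-likelihood, Benjamini-Hochberg) and log2 fold changes from 0.92 to 1.17. Castration gave -0.20 (95% interval -0.59 to 0.19, log2). Exons of Klf3 overlap those of Gm20033 on the opposite strand, and the strand setting of the counting is not given in the sources used here, so reads of these 2 genes may not be told apart.

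Klf15, a glucocorticoid-induced regulator of amino acid and glucose metabolism in liver and muscle, was high in Nkx intact cells. Its counts came to 130.4 and 74.1 CPM for Nkx intact, 23.5 and 31.9 CPM for Nkx castrate and 38.0 and 32.8 CPM for Clu intact. The 2 Nkx intact libraries lay above the other 4, although they also differed from each other. Castration lowered Klf15 3.70-fold (log2 fold change -1.89, SE 0.30; edgeR quasi-likelihood, Benjamini-Hochberg adjusted p = 0.0101), and this was the largest of the 10 changes with castration. Clu intact was 2.89-fold below Nkx intact (log2 fold change -1.53, SE 0.30; edgeR quasi-likelihood, Benjamini-Hochberg adjusted p = 0.0178). Both calls ended without Nkx intact 1, the higher library, with adjusted p = 0.0726 and 0.140 (edgeR quasi-likelihood, Benjamini-Hochberg), and the second also without Clu intact 1 or 2 (0.0876 and 0.140). Clu intact and Nkx castrate were neighbours at the low end, with a log2 difference of 0.36 (95% interval -0.34 to 1.05). Trp63 was likewise higher in both Nkx intact libraries than in the other 4, and the basal list gave 6 and 8 of 20 lower in the same comparisons, as described beside Klf5. The 14 luminal markers summed to 19401 and 23166 CPM for Nkx intact, 7839 and 9552 CPM for Nkx castrate and 14257 and 12621 CPM for Clu intact. Of them 4 rose and 4 fell with castration (0 and 3 without an Nkx intact library, 5 and 6 without a castrate library), and 4 were higher and 2 lower in Clu intact than in Nkx intact (1 or 0 each way without a library of either group, 6 and 4 without a castrate library). Most of the luminal sum in Nkx intact came from Tgm4 (8396 and 11255 CPM) and Pbsn (5393 and 6937 CPM). After castration these 2 genes were at 4.21 and 1.85 CPM and at 106 and 112 CPM. Krt8, also a luminal marker, had another order, with 792 and 705 CPM in Nkx intact, 2180 and 2558 CPM after castration and 1169 and 1441 CPM in Clu intact. The luminal sum thus does not stand for the amount of luminal cells. Over all tested genes the shares were 4.02% higher and 4.59% lower with castration. For Clu intact against Nkx intact they were 6.29% and 5.0%. The part of basal and luminal cells in the Klf15 difference was not tested.

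Genes of amino acid breakdown and related metabolism that other work has tied to Klf15 were counted beside it. Of 11 tested, 4 were called after castration, all lower, where 4.59% of all tested genes were lower. The list median was -0.67 against 0.05 over all tested genes (log2). Gpt2, the mitochondrial alanine transaminase, fell from 311 and 412 CPM to 54.4 and 70.5 CPM, and kept its call when each library was left out. Bcat2, the mitochondrial branched-chain transaminase, fell from 77.0 and 78.4 CPM to 33.6 and 35.1 CPM, and lost its call without either Nkx intact library, where the count of 4 became 1; without Nkx castrate 2 the count was 7. Clu intact against Nkx intact gave 5 lower and 1 higher. The higher one was Acss1, a mitochondrial acetyl-CoA synthetase, at 275 and 293 CPM in Clu intact against 72.7 and 81.0 CPM for Nkx intact; 2 were higher when a castrate library was dropped. The 5 became 0 without Nkx intact 1, Clu intact 1 or Clu intact 2, 1 without Nkx intact 2, and 8 when a castrate library was dropped. Against Nkx castrate, 3 were called, all higher in Clu intact, among them Gpt2 and Acss1, and the count was 2 when any Nkx intact or Clu intact library was left out.

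Klf9, a repressor induced by glucocorticoid and thyroid hormone, and Klf13, a related factor that also binds the Sin3A co-repressor, shared an order of groups. Klf9 stood at 153 and 129 CPM in the Nkx intact pair, 169 and 218 CPM in the castrate pair and 101 and 85.4 CPM in the Clu pair. None of its groups overlapped. It was 2.08-fold lower in Clu intact than in Nkx castrate (log2 fold change -1.05, SE 0.20; edgeR quasi-likelihood, Benjamini-Hochberg adjusted p = 0.0107). Klf13 stood at 216 and 159 CPM, 205 and 245 CPM, and 137 and 125 CPM in the same order of groups. Its Nkx groups overlapped, and Clu intact was 1.72-fold below Nkx castrate (log2 fold change -0.78, SE 0.20; edgeR quasi-likelihood, Benjamini-Hochberg adjusted p = 0.0349). Neither passed between Clu intact and Nkx intact, where the log2 fold changes were -0.60 (95% interval -1.06 to -0.14) and -0.52 (-0.98 to -0.05), or with castration, at 0.46 (-0.0001 to 0.91) and 0.26 (-0.20 to 0.73). The call of Klf9 ended without either Clu intact library (edgeR quasi-likelihood, Benjamini-Hochberg adjusted p up to 0.136). That of Klf13 ended without any Clu intact or Nkx intact library (up to 0.276) and in the fit of the 2 groups alone (0.0503).

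Between Clu intact and Nkx intact, both Klf9 and Klf13 passed in the fit of those 2 groups alone (edgeR quasi-likelihood, Benjamini-Hochberg adjusted p = 0.0210 and 0.0489). They also passed without either Nkx castrate library, with adjusted p-values between 0.0161 and 0.0481 (edgeR quasi-likelihood, Benjamini-Hochberg). Without Nkx castrate 1, the rise of Klf9 with castration passed as well, at a log2 fold change of 0.63 (edgeR quasi-likelihood, Benjamini-Hochberg adjusted p = 0.0371).

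Klf10, the TGF-beta-inducible early gene, was the steadiest of the 10 across libraries. It was at 115 and 107 CPM for Nkx intact, 133 and 128 CPM for Nkx castrate and 126 and 109 CPM for Clu intact. The 6 libraries thus lay within 107 to 133 CPM, and the Clu libraries overlapped those of Nkx intact. No comparison passed; the 95% intervals on the log2 scale were -0.14 to 0.62 for castration, -0.29 to 0.47 for Clu intact against Nkx intact, and -0.53 to 0.23 against Nkx castrate. Of 13 tested genes of the early TGF-beta response, 2 rose and 2 fell with castration, against 4.02% and 4.59% of all tested genes. Tgif1, a co-repressor of Smad proteins, rose from 130.5 and 101 CPM to 266 and 264 CPM, and Ccn2, a matricellular protein, fell from 77.7 and 36.1 CPM to 18.2 and 16.7 CPM. Without Nkx intact 1 both counts were 0, without Nkx intact 2 there were 0 higher and 1 lower, without Nkx castrate 1 there were 2 and 4, and without Nkx castrate 2 there were 4 and 2. In Clu intact 4 were lower than in Nkx intact, and 7 were lower and 1 higher than in Nkx castrate. The 4 became 1 without Nkx intact 1, 0 without Nkx intact 2 or either Clu intact library, and 7 when a castrate library was dropped. The 7 became 4 without either Nkx intact library, 3 without Clu intact 1 and 2 without Clu intact 2, and the 1 became 3 without Nkx castrate 1.

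**Figure D4:**
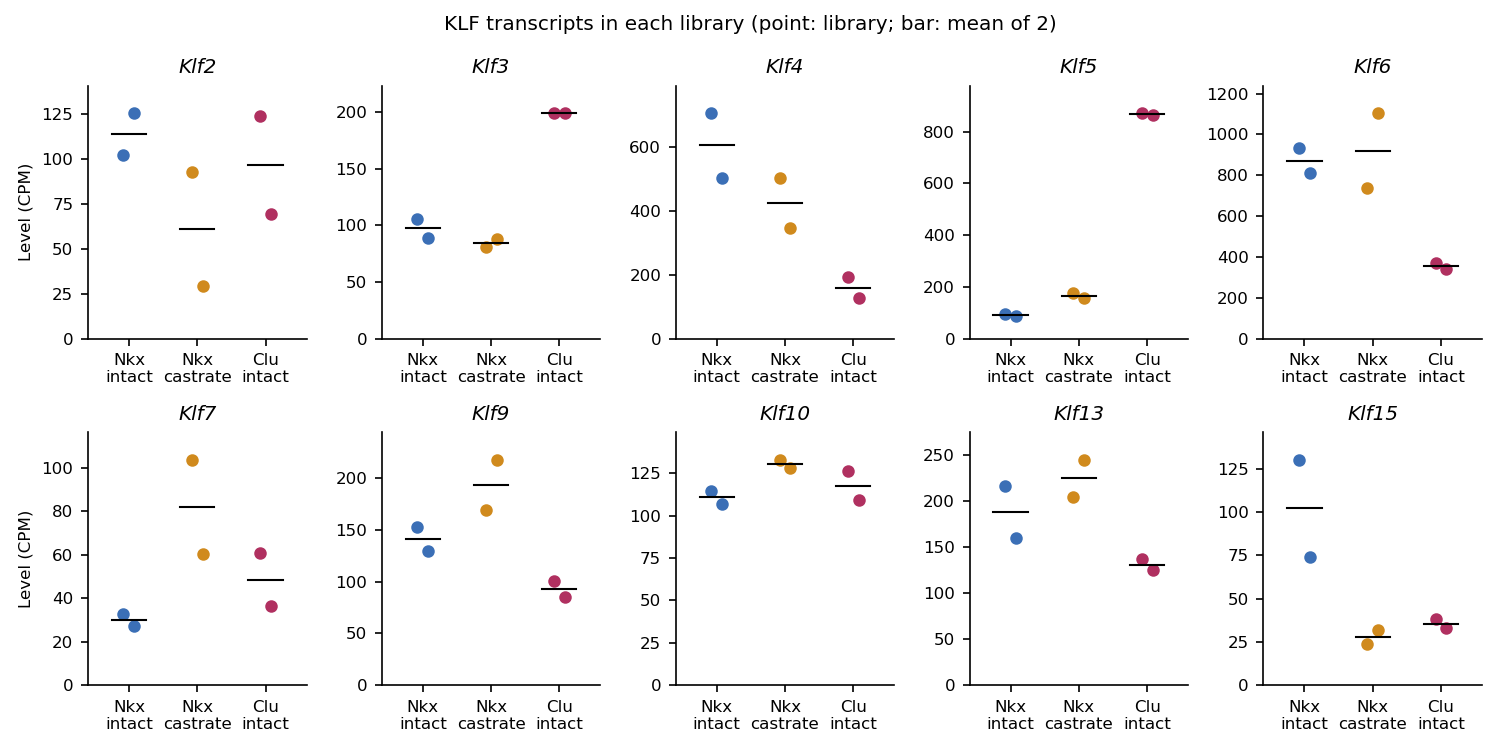
Level of each of the 10 Kruppel-like factors (y axes, CPM from 0) in Nkx intact, Nkx castrate and Clu intact; each point is a library and the bar is the mean of 2. Klf5 reaches 872 and 863 CPM in Clu intact, Klf10 stays between 107 and 133 CPM in the 6 libraries, and Klf2 is spread from 29.1 to 92.8 CPM within Nkx castrate.

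Klf7, best known from neurons and sensory ganglia, rose with castration but differed between the castrate libraries. It stood at 32.6 and 27.3 CPM in the Nkx intact pair, 104 and 60.5 CPM in the castrate pair and 60.7 and 36.4 CPM in the Clu pair. Both castrate libraries lay above both Nkx intact libraries, and Nkx castrate 2 lay level with Clu intact 1. The rise was 2.75-fold (log2 fold change 1.46, SE 0.33; edgeR quasi-likelihood, Benjamini-Hochberg adjusted p = 0.0381). Without Nkx castrate 1 it was 1.02 on the log2 scale and still passed (edgeR quasi-likelihood, Benjamini-Hochberg adjusted p = 0.0288). It did not pass without Nkx intact 1 (0.174) or Nkx intact 2 (0.267), nor with library totals in place of TMM factors (0.0526; edgeR quasi-likelihood, Benjamini-Hochberg), nor in limma-voom (adjusted p = 0.0527). Neither comparison with Clu intact passed, at log2 fold changes of 0.70 against Nkx intact (95% interval -0.08 to 1.47) and -0.76 against Nkx castrate (-1.52 to 0.002). Without Nkx castrate 2 the latter was -1.09 and passed (edgeR quasi-likelihood, Benjamini-Hochberg adjusted p = 0.0133), as it did without the filter on low counts (0.0237).

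Myh11, Acta2, Des and Cnn1, markers of smooth muscle, were highest in Nkx castrate 1, as was Klf7, but not all followed Klf7 elsewhere. Myh11, the smooth muscle myosin, stood at 64.7 and 44.8 CPM for Nkx intact, 923 and 250 CPM for Nkx castrate and 223 and 90.4 CPM for Clu intact. Its Pearson r with Klf7 on log2(CPM + 0.5) was 0.997 over the 6 libraries. That r was the highest of 9030 genes searched in these same libraries, so it describes a pattern and is not a test. The 20 stromal markers summed to 1050 and 855 CPM, 2804 and 641 CPM, and 1566 and 1033 CPM in the same order, with none of the 20 at 0 in any library. Nkx castrate 2 had the lowest stromal sum of the 6 and more Klf7 than either Nkx intact library. The stromal markers did not move together in that library. Acta2 was at 98.5 CPM against 28.4 and 13.2 CPM in Nkx intact, and Des at 52.0 CPM against 12.6 and 5.53 CPM. Dcn was at 110 CPM against 360 and 335 CPM. Nor did they move together in the Clu intact pair, where Klf7 was at 60.7 and 36.4 CPM. There Acta2 was at 76.4 and 31.0 CPM, Des at 17.9 and 17.3 CPM and Cnn1 at 5.15 and 7.90 CPM. Of the stromal markers, 6 rose with castration; the number was 0 when an Nkx intact library was dropped and 13 (with 3 lower) when Nkx castrate 2 was dropped, while 5 were higher and 8 lower when Nkx castrate 1 was. With all libraries, 4.02% of all tested genes rose and 4.59% fell with castration. The part of stromal RNA in the Klf7 difference was not tested. Exons of Klf7 overlap those of Gm13748 and Gm26649 on the opposite strand, with the same limit as for Klf3.

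Klf2, known from blood flow sensing in endothelium and from resting T cells, varied within groups. Levels of 102 and 126 CPM in the Nkx intact pair, 92.8 and 29.1 CPM in the castrate pair and 124 and 69.5 CPM in the Clu pair differed widely within the castrate pair and within the Clu pair, and Clu intact overlapped both Nkx groups. No comparison passed, and the 95% intervals on the log2 scale ran from -2.04 to 0.24 for Nkx castrate against Nkx intact, from -1.37 to 0.90 for Clu intact against Nkx intact, and from -0.48 to 1.80 for Clu intact against Nkx castrate. Without Nkx castrate 1, the log2 fold changes of the first and the last became -1.97 and 1.74 and passed (edgeR quasi-likelihood, Benjamini-Hochberg adjusted p = 0.00102 and 0.00156). They also passed without the filter on low counts (edgeR quasi-likelihood, Benjamini-Hochberg adjusted p = 0.00153 and 0.0233). For Nkx castrate against Nkx intact the log2 fold change was -0.90 with and without the filter. The lower adjusted p thus did not come from a larger change, and the castrate libraries still lay far apart.

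Endothelial RNA followed Klf2 in part. Within Nkx castrate and within Clu intact, the library with more Klf2 had the larger endothelial sum, 436 against 67.3 CPM and 1079 against 442 CPM. In Nkx intact Klf2 was above 100 CPM beside sums of 73.7 and 49.5 CPM. Pecam1 was at 9.76 and 9.19 CPM for Nkx intact, 80.8 and 7.98 CPM for Nkx castrate and 214 and 90.2 CPM for Clu intact, and 1 of the 12 endothelial markers was at 0 in 1 library. Leukocyte markers summed to 151 and 144 CPM, 289 and 44.1 CPM, and 56.9 and 65.0 CPM, with Cd3e, a T cell marker, at 0 or up to 3.31 CPM. The part of endothelial and leukocyte RNA in the level of Klf2 was not tested. With castration 4.02% of all tested genes rose. In Clu intact 6.29% were higher than in Nkx intact, and 8.82% were higher and 8.10% lower than in Nkx castrate. Of 6 tested endothelial and lymphocyte genes that other work has placed under Klf2, 1 rose with castration, Edn1, the gene of endothelin, from 13.8 and 7.70 CPM to 56.0 and 77.8 CPM; it did not pass without Nkx intact 2, and the count was 5 without Nkx castrate 2. Clu intact exceeded Nkx intact in 3 of the 6, a count of 0 without either Nkx intact library or Clu intact 1, and of 5 when a castrate library was dropped. Against Nkx castrate edgeR's quasi-likelihood test called 0 of the 6 (2 higher and 1 lower at an unadjusted p under 0.05), DESeq2 called 1 and limma-voom 0, and without Nkx castrate 1 edgeR called 4 higher and 1 lower.

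Upstream of Klf2 and Klf4, the kinases MEK5 and ERK5 act through MEF2 factors. None of the 8 genes tested from this pathway passed with castration (0 at an unadjusted p under 0.05 in edgeR, 0 in DESeq2 and 0 in limma-voom; 1 without Nkx castrate 2), or between Clu intact and Nkx intact (2 lower at an unadjusted p under 0.05, 0 in DESeq2 and 0 in limma-voom; 1 higher and 1 lower without Nkx castrate 1, 1 higher without Nkx castrate 2). Against Nkx castrate, Map3k2, a kinase above MEK5, was lower in Clu intact, at 67.8 and 65.5 CPM against 98.4 and 104 CPM, and this call held in edgeR only with all 6 libraries or without Nkx castrate 1, where 1 gene was also higher.

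Of 17 further Kruppel-like and Sp factors listed, 16 were in the table and 11 were tested; Klf14 and Klf17 had no count in any library, which allows up to 0.168 to 0.296 CPM (3 counts of a library). With castration 2 of the 11 fell, where 4.59% of all tested genes did. Klf12, a repressor that binds CtBP, went from 37.6 and 81.7 CPM to 19.8 and 15.4 CPM, and Sp5, a target of Wnt signalling, from 9.76 and 13.2 CPM to 1.57 and 3.4 CPM. Sp5 was higher in Clu intact than in Nkx castrate, at 25.1 and 16.7 CPM, and this passed when each library was left out. Klf16 was lower in Clu intact, at 25.2 and 18.7 CPM, than in Nkx intact (55.8 and 71.5 CPM) and Nkx castrate (68.2 and 84.7 CPM), and the difference from Nkx castrate also passed when each library was left out. Klf11, a TGF-beta-inducible relative of Klf10, was the other of 2 lower in Clu intact than in Nkx intact (5.0% of all tested genes were lower), at 29.0 and 25.2 CPM against 58.3 and 56.2 CPM. The count of 2 after castration was 1 without Nkx intact 1 or a Clu intact library and 0 without Nkx intact 2; without Nkx castrate 1 there were also 2 higher. Between the intact groups it was 1 without Nkx intact 1 or Clu intact 1 and 0 without Nkx intact 2 or Clu intact 2. Against Nkx castrate, 1 was higher and 1 lower, and 3 were lower without Nkx castrate 1.

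Of 20 cofactors and ubiquitin enzymes of the family, 1 was higher and 1 lower after castration, and 3 were lower without Nkx castrate 2. Over all tested genes 4.02% rose and 4.59% fell with castration, so this list was near the general share. The lower gene of the list was Wwp1, a ubiquitin ligase that marks KLF5 for breakdown. It stood at 99.96 and 94.3 CPM in the Nkx intact pair, 47.8 and 39.7 CPM in the castrate pair and 93.6 and 86.4 CPM in the Clu pair. Its fall was 1.15 on the log2 scale (SE 0.18; edgeR quasi-likelihood, Benjamini-Hochberg adjusted p = 0.00957) and did not pass without Nkx intact 1 or 2. Usp10, a deubiquitinase, was the higher one, and it passed only with all 6 libraries or without Nkx castrate 1. Between the intact groups 1 was lower in Clu intact, Fhl3, a LIM protein that partners Klf3, and it did not pass without any of the 4 libraries compared; without Nkx castrate 1 there were 2. Against Nkx castrate 2 were higher, Wwp1 and Kat2b, and 2 lower, Fhl3 and Usp10; without Clu intact 1 there were 0, without Clu intact 2 there was 1 (lower), and without an Nkx intact library there was 1 each way. Leaving out Nkx castrate 1 gave 1 higher and 3 lower, and Nkx castrate 2 gave 2 and 1.

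Genes that share signals with the family were counted as well. Of all tested genes, 4.02% were higher and 4.59% lower with castration. The shares were 6.29% and 5.0% for Clu intact against Nkx intact, and 8.82% and 8.10% against Nkx castrate. Of 14 glucocorticoid-induced genes, 1 passed with castration, Fkbp5, a chaperone of steroid receptors that androgen also induces. It stood at 193 and 143 CPM for Nkx intact, 33.6 and 19.3 CPM for Nkx castrate and 432 and 764 CPM for Clu intact. The castration count was 0 without Nkx intact 1, 2 lower without a Clu intact library, and up to 2 higher and 4 lower without a castrate library. The list gave 8 lower and 1 higher (Fkbp5) in Clu intact against Nkx intact, and 4 lower and 1 higher against Nkx castrate; the 8 were 1 without Nkx intact 1, 4 without Nkx intact 2 or Clu intact 2, and 3 without Clu intact 1. Fkbp5 did not pass against Nkx intact without Nkx intact 1, Nkx intact 2 or Clu intact 2 (edgeR quasi-likelihood, Benjamini-Hochberg adjusted p up to 0.152), where the 1 higher became 0. Of 15 clock genes, 2 rose and 1 fell with castration, and 10 were lower and 2 higher in Clu intact than in Nkx castrate. Without Nkx intact 1 the 2 that rose became 1, without Nkx intact 2 they became 0, and without a castrate library 4 or 5. Per1, which belongs to both lists, was at 858 and 720 CPM in the Nkx intact pair, 1121 and 764 CPM in the castrate pair and 136 and 150.1 CPM in the Clu pair. Between the intact groups 5 clock genes were lower and 2 higher in Clu intact. The 5 became 2 without Nkx intact 1, 3 without either Clu intact library, and 8 when a castrate library was dropped; the 2 became 0 without any Nkx intact or Clu intact library. Against Nkx castrate the 10 became 6 without Clu intact 2, and the 2 became 1 without either Clu intact library. The hour at which tissue was taken is not given in the sources used here.

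Of 16 tested epithelial genes that other work has tied to Klf4 or Klf5 (keratins, cornified envelope, cell cycle and adhesion genes), 5 rose and 2 fell with castration. Over all tested genes 4.02% rose and 4.59% fell. Sprr1a, a cornified envelope precursor, went from 124 and 114 CPM to 776 and 980 CPM and held when each library was left out. In Clu intact 5 were higher and 1 lower than in Nkx intact, and 4 were higher and 4 lower than in Nkx castrate. Krt4, a keratin of stratified mucosa, followed the order of Klf5, with 13.9 and 21.7 CPM for Nkx intact, 55.3 and 72.3 CPM for Nkx castrate and 899 and 1123 CPM for Clu intact. Ccnd1, the gene of cyclin D1, was at 84.4 and 89.6 CPM, 54.8 and 46.3 CPM, and 176 and 227 CPM. The 5 that rose with castration numbered 1 when Nkx intact 1 was dropped and 2 when Nkx intact 2 was, and the 2 that fell became 0 in both fits and 1 without either Clu intact library. The 5 higher in Clu intact than in Nkx intact were 1 without either Nkx intact library and 2 without Clu intact 2, and the 1 lower became 0 without Nkx intact 1 or Clu intact 2. Against Nkx castrate the counts were 2 and 2 without Clu intact 2, 2 and 3 without Clu intact 1, 2 and 4 without Nkx intact 2, and 6 and 5 without Nkx castrate 1. Krt4 is also among the proximal markers above. No binding of a Kruppel-like factor was measured here.

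The genes most like each member were those with the highest Pearson r on log2(CPM + 0.5) over the 6 libraries, among 9030 genes with a mean of at least 10 CPM. The 6 points share 3 groups and the same libraries, so such values describe group patterns and carry no p. For Klf5 they were Npepps, an aminopeptidase, Gsdmc2, a gasdermin with near-identical copies, and Ckmt1, a mitochondrial creatine kinase (r from 0.994 to 0.996). Klf3 was closest to Cnnm4, a magnesium transporter, Mboat1, a lysophospholipid acyltransferase, and Aplp2, an amyloid precursor relative (0.996 to 0.998). Itprip, Prdm2 and Pi4k2a were closest to Klf4 (0.994 to 0.996), and Nxf7, Zkscan17 and Rnf19a to Klf6 (0.994 to 0.997). Beside Klf15 came Slc25a44, a mitochondrial carrier of branched-chain amino acids, Cobll1 and Dnajb12, a chaperone of the endoplasmic reticulum (0.986 to 0.993). Klf9 was nearest to Dusp16, a phosphatase of MAP kinases, Btg1, an antiproliferative factor, and Shroom3, an actin-binding protein (0.995 to 0.998). Klf13 was nearest to Stau1, Naaladl2 and Dyrk1a (0.992 to 0.997), and Klf10 to Stard13, Cemip2 and Asxl2 (0.976 to 0.984). For Klf7 they were Myh11, Osmr, the oncostatin M receptor, and Acta2, smooth muscle actin (0.991 to 0.997), and for Klf2 Ninl, Dync2i2 and Nhsl2 (0.976 to 0.987).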

How the data were processed

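The values are the authors' raw gene-level read counts as deposited, with 6 libraries as columns. They are whole numbers, and the totals differ between columns. Per the labels' protocols, 2 ng of total RNA entered a stranded low-input kit. Per the submitters' processing notes, the tools were Subread 2.0.1 (featureCounts), STAR 2.7.9a and FastQC 0.11.9, on GRCm39. Neither the annotation release nor the strand setting nor the handling of multi-mapped reads is given in the sources used here.

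With edgeR 4.0.16 under R 4.3.3, low-count genes were removed (filterByExpr, 13846 kept) and the rest scaled by TMM and fitted with glmQLFit with a mean per group over all 6 libraries, leaving 3 residual degrees of freedom. The 3 comparisons were two-sided quasi-likelihood F tests with Benjamini-Hochberg adjustment over all tested genes at 0.05. SE and 95% intervals come from the model. CPM used the effective library sizes, so 1 count was 0.0561 to 0.0988 CPM. Fold changes are positive where the first-named group is higher. The code was tested on simulated data. Alternatives were a replicate block, each library left out in turn, a fit of the compared groups alone, no filter, RLE or library-total scaling, limma-voom (limma 3.58.1) and DESeq2 1.42.0. With 2 libraries a group, no permutation test can reach 0.05.

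The members and gene lists were chosen with earlier results of these data known. All members are named; of each other list, called genes with a mean of at least 10 CPM could be named, the 4 with the largest change in a comparison, and the 3 genes most like each member. Clu, Epcam, Krt8, Pecam1 and Cd3e were named as checks. Counts are given over all features tested of a list. The shares of all tested genes called higher and lower, given beside the members, can be set beside each list count too. As members and lists were chosen with earlier results known, an excess over these shares is descriptive and not a test. Floors of 3 counts cover counting error only, while the intervals include the spread between libraries.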

Additional observations from a re-analysis of the deposited data

How the results depend on the processing

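Leaving out 1 library each was the alternative that moved calls most. The members called were 0 to 5 (3 with all libraries) for Nkx castrate against Nkx intact, 1 to 7 (5) for Clu intact against Nkx intact, and 2 to 7 (6) for Clu intact against Nkx castrate. A group left with 1 library is assumed to vary like the others. In each comparison the share of all tested genes called fell without an Nkx intact or Clu intact library. It rose without either castrate library, so the number of calls depended on which library was left out. Sign changes occurred only in these fits and only for members that had not passed: Klf6 with castration ranged from -0.25 to 0.34, and between the intact groups Klf2 from -0.70 to 0.13 and Klf10 from -0.0054 to 0.20 (log2). Over all 390 values of single members under the 13 alternatives, 339 kept their direction and side of the threshold, 32 lost a call, 15 gained a call and 4 changed sign. No called fold change moved over 1.5 times. RLE scaling, library totals, no filter, DESeq2, limma-voom and the groups compared alone left each count of called members within 1.5 times.

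The labels do not link replicate numbers between groups. Deviations of same-numbered libraries correlated at 0.105, 0.0593 and 0.263 across genes, so the numbers were not taken as pairs. With the replicate block the members called were 3, 5 and 7; the added call was Klf7, lower in Clu intact than in Nkx castrate (log2 fold change -0.76).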
